A study of Mus musculus with 14 samples.

Results

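The 43 cell cycle genes described here encode proteins of DNA replication and mitosis, and their transcripts mark the dividing cells of the intestinal crypt. They were taken by gene symbol, and the list was drawn up with earlier results of these data known. Of the 43, 18 act at the entry into S phase or in S phase and 25 in G2 or mitosis. All 43 were among the 55889 genes listed for mice without dextran sulfate sodium (DSS) and the 54721 genes listed after DSS, and all 43 passed the filter on low counts in every comparison. RNA was sequenced from the intestine of C57BL/6N mice of 2 genotypes, wild type (WT) and miR-29ab1-/- (KO), a germline deletion of the gene cluster of miR-29a and miR-29b-1, carried by every cell type. Without DSS 4 mice of each genotype were measured, and 3 of each after 3 days of 3.5% DSS in the drinking water, a polymer that injures the colonic epithelium. The study states that a WT and a miR-29ab1-/- sample were left out of its analysis, without naming them. The study used littermates of 8 to 12 weeks, matched for age and sex, without giving age, sex or litter by mouse. Each mouse is named below by its genotype and number. After DSS the number is that of the deposited column, which could not be matched to a single sample label.

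In a crypt, stem cells and their transit-amplifying daughters divide near the base, and their progeny stop dividing as they move to the surface. Before S phase the licensing factors Cdc6 and Cdt1 load the Mcm2-7 helicase onto replication origins, and cyclin E and the E2F factors switch on the genes of DNA synthesis. Later, cyclins A and B with Cdk1 drive entry into mitosis, and the Aurora and Polo kinases, kinesins and checkpoint proteins separate the chromosomes. The study stained the crypts for Ki67, the protein of Mki67, to ask whether the deletion alters proliferation. It reported no significant difference without DSS, and markedly less dividing epithelium in KO mice over a time course of DSS. The comparisons below ask the same question of these transcripts, between genotypes in each experiment and between experiments in each genotype. They measure RNA, after DSS at 3 days only, and not protein in sections.

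The E2F factors and the MuvB complex are known to act through short promoter motifs, so the promoters of the 43 genes were searched for them. RefSeq promoters on GRCm38.p6, 250 bases before to 50 bases after the start, matched 35 of the 43 genes. The letters searched on both strands were TTTCCCGC, TTTCGCGC, TTTGCCGC and TTTGGCGC for E2F, TTTGAA for the cell cycle homology region (CHR) that MuvB binds, and CCAAT for the CCAAT box. An E2F match was in 7 of 15 S phase promoters (46.7%), in 1 of 20 G2/M promoters (5%) and in 2.32% of all 27025 promoters. Among the licensing genes 6 of 7 (85.7%) had one. The CHR showed the opposite pattern, with 1 of 15 S phase promoters (6.67%, Mcm2), 15 of 20 G2/M promoters (75%) and 18.1% of all promoters. A CCAAT box was in 60% of the S phase and 85% of the G2/M promoters, against 37.9% of all. Matches may overlap, as do an E2F match and a CCAAT box in Mcm7. These are matches of letters and not shown to be sites in use.

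The promoters of 3 helicase genes that were lower in KO mice after DSS are printed with 3 of G2/M genes, with every E2F, CHR and CCAAT match in capitals. Mcm6 lies at chr1:128359656-128359955, Mcm3 at chr1:20820263-20820562, Mcm7 at chr5:138171834-138172133, Ccnb2 at chr9:70421505-70421804 and Mki67 at chr7:135716330-135716629, all on the minus strand. Plk1 lies at chr7:122159185-122159484 on the plus strand. Mcm6 has 3 E2F matches, of which 2 overlap on opposite strands in 1 stretch, and Mcm3 and Mcm7 have 2 each. None of these 3 genes has a CHR. Ccnb2 and Mki67 have 2 CHR matches each and Plk1 has 1, and none of the 3 has an E2F match. Among the other genes called lower in KO mice after DSS, Cdt1 has 1 E2F match and E2f1 has 0. Ccne1, in which every KO mouse was below every WT mouse after DSS, has 0 as well. Genes with an E2F match that were not called are Mcm5 with 2 and Cdc6, E2f2 and Cdk1 with 1 each. Their log2 differences between KO and WT mice after DSS were, in that order, -0.37, -0.66, -0.03 and 0.01.
Mcm6: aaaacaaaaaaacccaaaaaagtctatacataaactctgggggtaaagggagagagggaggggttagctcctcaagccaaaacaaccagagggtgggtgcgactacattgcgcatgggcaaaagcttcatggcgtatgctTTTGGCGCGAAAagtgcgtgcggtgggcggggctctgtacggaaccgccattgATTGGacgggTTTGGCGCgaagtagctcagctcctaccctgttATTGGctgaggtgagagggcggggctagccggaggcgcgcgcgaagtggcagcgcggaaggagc
Mcm3: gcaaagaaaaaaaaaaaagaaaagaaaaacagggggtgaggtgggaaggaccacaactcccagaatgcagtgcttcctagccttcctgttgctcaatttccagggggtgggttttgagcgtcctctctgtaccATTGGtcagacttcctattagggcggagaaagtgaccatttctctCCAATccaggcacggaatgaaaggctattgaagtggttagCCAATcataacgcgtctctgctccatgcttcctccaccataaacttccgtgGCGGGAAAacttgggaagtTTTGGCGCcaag
Mcm7: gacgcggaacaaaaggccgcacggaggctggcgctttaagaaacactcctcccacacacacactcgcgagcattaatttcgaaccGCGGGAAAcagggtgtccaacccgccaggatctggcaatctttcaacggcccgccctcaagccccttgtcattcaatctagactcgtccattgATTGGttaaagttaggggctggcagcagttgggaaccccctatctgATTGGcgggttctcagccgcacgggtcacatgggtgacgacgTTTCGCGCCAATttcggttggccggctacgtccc
Ccnb2: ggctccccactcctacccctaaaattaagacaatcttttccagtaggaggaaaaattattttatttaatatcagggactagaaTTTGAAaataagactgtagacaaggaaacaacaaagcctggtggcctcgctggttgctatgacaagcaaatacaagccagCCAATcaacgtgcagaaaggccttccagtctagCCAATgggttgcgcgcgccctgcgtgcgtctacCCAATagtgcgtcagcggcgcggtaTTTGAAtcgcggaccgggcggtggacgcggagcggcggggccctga
Plk1: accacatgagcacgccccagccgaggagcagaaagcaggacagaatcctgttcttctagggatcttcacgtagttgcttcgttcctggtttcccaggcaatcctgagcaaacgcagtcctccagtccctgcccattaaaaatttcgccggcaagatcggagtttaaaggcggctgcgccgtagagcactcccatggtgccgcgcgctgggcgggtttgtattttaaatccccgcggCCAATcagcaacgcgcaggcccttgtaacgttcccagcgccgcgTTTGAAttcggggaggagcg
Mki67: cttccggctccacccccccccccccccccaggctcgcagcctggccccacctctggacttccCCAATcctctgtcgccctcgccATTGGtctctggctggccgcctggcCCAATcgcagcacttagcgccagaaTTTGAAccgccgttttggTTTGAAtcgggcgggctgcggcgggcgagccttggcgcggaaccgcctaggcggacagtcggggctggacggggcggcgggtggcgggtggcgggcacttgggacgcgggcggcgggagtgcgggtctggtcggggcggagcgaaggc

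The 2 deleted miRNAs share the seed at bases 2 to 8, shown in capitals, which pairs with TGGTGCT in a target. Mature miR-29a-3p is encoded at chr6:31062673-31062694 and miR-29b-3p at chr6:31063025-31063047, both on the minus strand of GRCm38.p6. A second gene, Mir29b-2 on chromosome 1, encodes the same mature miR-29b-3p and is not part of the deletion.
miR-29a-3p: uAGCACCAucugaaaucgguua
miR-29b-3p: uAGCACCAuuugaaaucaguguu
In GENCODE vM21, 4 of the 43 genes (9.3%) had TGGTGCT in a 3′ UTR, namely Ccna2, Aurkb, Cenpf and Tpx2, against 13.6% of 20979 genes. The matches are shown with 8 bases on each side, and none is followed by the A of an 8-base match. All 4 are G2/M genes, and none of the licensing genes had a match.
Ccna2: gttaacatTGGTGCTgccaactg
Aurkb: gcactacaTGGTGCTcacgacca
Cenpf: tgtgtgtgTGGTGCTcaggtctc
Tpx2: tttattgtTGGTGCTgacaatgg
Their log2 differences between KO and WT mice, in that order, were -0.05, 0.13, -0.16 and -0.01 without DSS and 0.07, -0.25, -0.11 and -0.20 after DSS. None of the 4 passed the test in either experiment.

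The libraries held 14231157 to 18185020 counted reads without DSS and 20076719 to 23153149 after DSS, so that 3 reads are 0.165 to 0.211 and 0.13 to 0.149 counts per 1000000 reads (CPM). Such floors cover counting error only. Lncpint, a long noncoding RNA gene beside the deleted cluster, had 0.251 to 1.28 CPM in the 7 WT mice and 29.4 to 201 CPM in the 7 KO mice, so the genotype labels were borne out in all 14. The labels name crypts of the small intestine and the study names colon. Genes of colon epithelium had a median of 168 CPM without DSS and 185 CPM after it, genes of small intestine 0.409 and 0.454 CPM, genes of epithelium in general 997 and 1184 CPM, and genes of smooth muscle 0.137 and 0.144 CPM. Apoa4, a defining enterocyte gene of the small intestine, was the lowest of its list at 0.0222 and 0.00791 CPM, and Fabp2, a fatty acid binding protein of enterocytes, the highest at 195 and 290 CPM, above the median of the colon genes.

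Without DSS the 43 genes were expressed over a wide range. Levels are compared between genes in FPKM, reads per kilobase of gene and 1000000 reads of a library scaled by TMM, computed from the deposited counts and gene lengths. In WT mice without DSS the mean level was highest for Plk1, the Polo kinase of mitotic entry, at 68.2 ± 10.1 FPKM (SD, n = 4), followed by Pcna, the sliding clamp of DNA polymerase, at 42.0 ± 4.80 FPKM. Cdc20, an activator of the anaphase-promoting complex, followed at 24.8 ± 2.05 FPKM and the mitotic cyclin gene Ccnb2 at 23.3 ± 2.19 FPKM, values that lie within each other's SD. Mki67 was at 19.7 ± 2.94 FPKM and Mcm6 at 18.3 ± 2.09 FPKM. The lowest were Cdc6 at 1.74 ± 0.439 FPKM and Kif11, a spindle kinesin, at 0.853 ± 0.427 FPKM. The rank of Kif11 may depend on its gene model, which is of another length in the mice after DSS. There Kif11 was at 5.39 ± 0.696 FPKM in WT mice. Part of the Plk1 count may belong to Gm44985, a gene on the other strand that shares 1016 bases with it and had a mean of 1182 reads a mouse without DSS, where Plk1 had 2534, since the use of strand in counting was not given.

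Without DSS no cell cycle gene passed the test between genotypes. By edgeR's quasi-likelihood test 0 of the 43 reached an unadjusted p under 0.05, the cutoff of the study, where 2.09% of all 15441 tested genes did so upward in KO mice and 1.58% downward. With DESeq2 the count was also 0. The median difference on the log2 scale was -0.03 over all 43 genes, -0.03 over S phase genes and -0.01 over G2/M genes, beside 0.00 over all genes tested, with 18 genes above 0 and 25 below. No gene had genotypes that did not overlap in FPKM, where 2.03% of all genes tested did. After Benjamini-Hochberg adjustment 0.0194% of all genes were called in either direction. The 95% interval of the difference, taken from the standard error and a t quantile, lay within 1 log2 unit on both sides for 42 of the 43 genes, all but Kif11.

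Mki67 was at 21.2, 21.1, 21.2 and 15.3 FPKM in WT mice 1 to 4 and at 16.8, 18.03, 23.3 and 17.5 FPKM in KO mice 1 to 4. The genotypes overlapped, and the log2 difference was -0.06 with a 95% interval of -0.37 to 0.25. Pcna was at 42.8, 48.1, 40.0 and 36.8 FPKM in WT mice and at 37.7, 39.3, 47.1 and 35.0 FPKM in KO mice. Here too the groups overlapped, with a log2 difference of -0.08 and an interval of -0.33 to 0.18. Of the 6 genes with the smallest p, E2f2, a transcription factor of the G1/S switch, had the largest difference. It was at 9.50, 7.94, 7.14 and 5.65 FPKM in WT mice and at 9.10, 12.6, 10.2 and 4.91 FPKM in KO mice, a log2 difference of 0.29 with an interval of -0.33 to 0.90. The lowest and the highest of the 8 values were both from KO mice.

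Mcm3, a helicase subunit, was at 11.2, 12.4, 10.1 and 9.53 FPKM in WT mice and at 7.68, 10.3, 10.6 and 10.8 FPKM in KO mice, a log2 difference of -0.13. Only KO mouse 1 lay below the WT range. Cenpf, a kinetochore protein gene, was at 2.50, 2.51, 3.11 and 2.47 FPKM in WT mice and at 1.93, 2.08, 3.25 and 2.21 FPKM in KO mice. Ccnb2 was at 24.2, 26.0, 21.5 and 21.5 FPKM in WT mice and at 20.7, 15.6, 31.3 and 16.9 FPKM in KO mice. In both genes 3 KO mice were under every WT mouse and mouse 3 was over every one. Kif23, a kinesin of cytokinesis, was at 5.09, 5.96, 5.58 and 4.49 FPKM in WT mice and at 3.66, 5.02, 6.5 and 4.04 FPKM in KO mice. Foxm1, the transcription factor of G2/M genes, was at 5.13, 4.33, 3.96 and 3.38 FPKM in WT mice and at 3.98, 3.90, 6.17 and 4.19 FPKM in KO mice. Again KO mouse 3 was the highest of the 8.

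That mouse stood apart across the mitotic genes. KO mouse 3 had the highest level of the 8 mice in 29 of the 43 genes, among them 23 of the 25 G2/M genes but 6 of the 18 S phase genes. Its mean over 23 G2/M genes, without Kif11 and Kif20a, was 5.61 on the log2(CPM + 0.5) scale, where the other 7 mice lay between 4.86 and 5.30. Its mean over the 18 S phase genes was 4.98, within the range of 4.63 to 5.02 of the others. Its mitochondrial reads, 7.09% of the total, were within the range of the other 7, and its 13.3% of reads in the 10 most abundant genes was the lowest of the 8, next to 13.4%. Without this mouse, 8 G2/M genes were called lower at the unadjusted cutoff, with log2 differences from -0.43 for Ccnb1 to -0.27 for Prc1, and 1.71% of all 15777 tested genes were lower in that fit, and the smallest adjusted p among the 8 was 0.709 in edgeR's quasi-likelihood test. The others were Cdc20, Cenpf, Ccnb2, Ccna2, Aurka and Birc5. Without KO mouse 4, E2f2 was called higher.

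**Figure D1:**
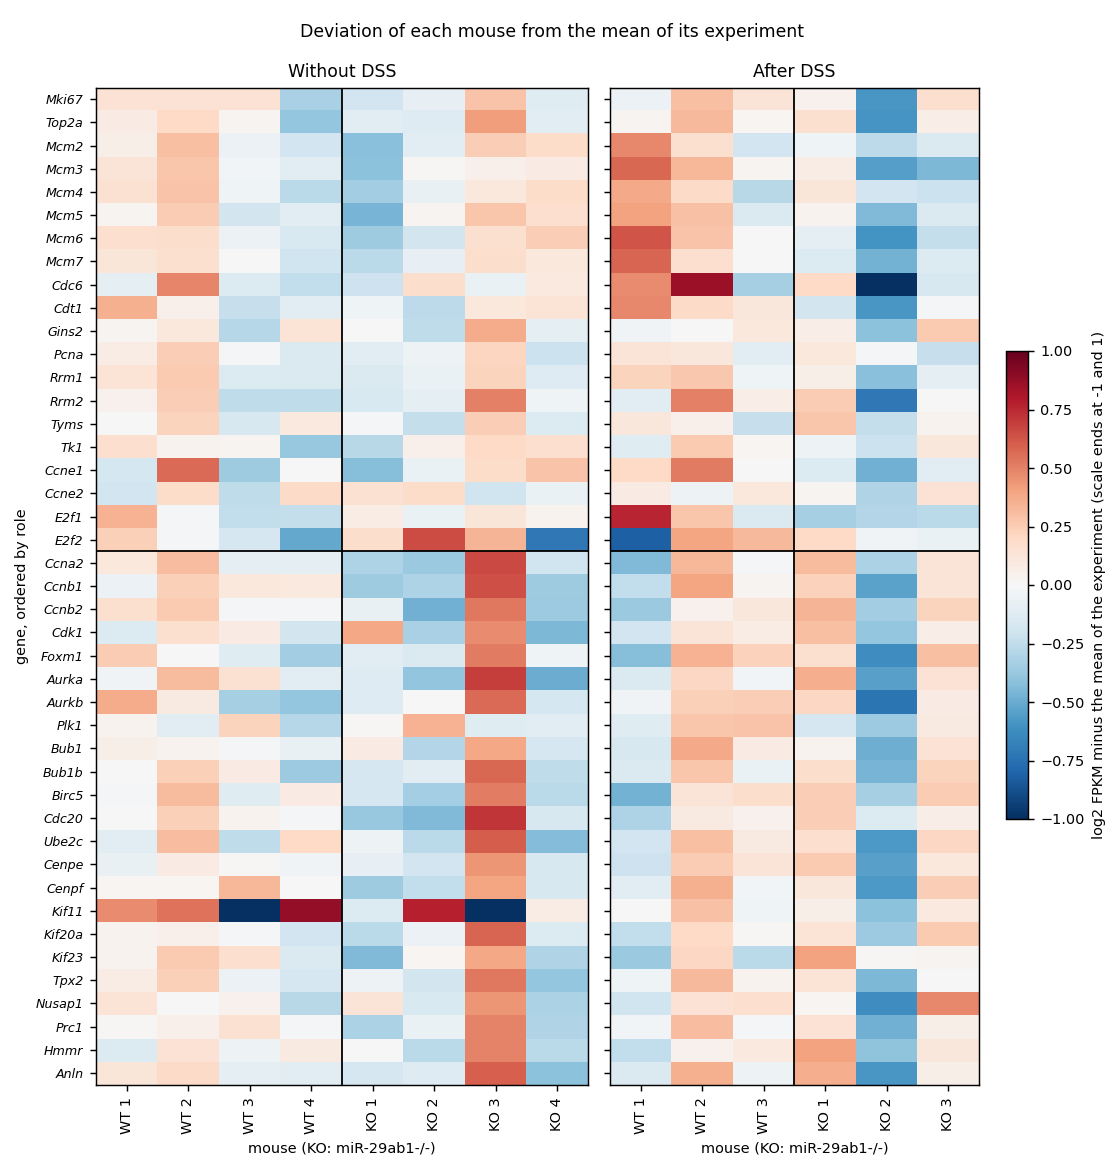
Colour gives the log2 FPKM of each of the 43 genes (rows, by role, with the G2/M markers Mki67 and Top2a first, then the S phase genes, and the other G2/M genes under the horizontal line) in each mouse (columns) minus the mean of its experiment. KO mouse 3 without DSS is the highest mouse in 23 of the 25 G2/M genes, and KO mouse 2 after DSS is the lowest mouse in 34 of the 43 genes.

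After DSS 5 S phase genes were lower in KO mice, 3 subunits of the Mcm helicase, its loader Cdt1 and the activator E2f1, and no mitotic gene was called. Of the 18 S phase genes, 17 had a log2 difference below 0, with a median of -0.31, and Mcm6, Mcm3, Mcm7, Cdt1 and E2f1 reached an unadjusted p under 0.05. Of the 25 G2/M genes, 16 were below 0, with a median of -0.08, and 0 reached it. Over all 43 genes 5 (11.6%) were lower and 0 higher, where 3.25% of all 14908 tested genes were lower and 3.98% higher and their median was -0.01. Scaled by total counts alone the median of all genes was -0.13 and 41 of the 43 genes were below 0, 8 of them turned from above it, and 9 were called lower, while the S phase median was -0.43 and the G2/M median -0.19. None of the 43 passed Benjamini-Hochberg adjustment, which 0.0134% of all genes did, with a smallest adjusted p of 0.646 in edgeR's quasi-likelihood test. With DESeq2 the counts were 5 lower at the unadjusted threshold and 0 after adjustment. The share of all genes at the unadjusted cutoff was not counted with total counts alone or with DESeq2. In 5 genes, all of S phase, every KO mouse was below every WT mouse in FPKM, namely Mcm6, Mcm7, Cdt1, E2f1 and Ccne1, and 6.28% of all genes tested did the same. Whether fewer cells were in S phase or each held less RNA cannot be told apart in bulk RNA.

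Mcm6, a subunit of the replicative helicase (ENSMUSG00000026355, chr1:128331590-128359664), was at 13.6, 10.7 and 8.83 FPKM in WT mice 1 to 3 and at 8.27, 5.82 and 7.46 FPKM in KO mice 1 to 3. Every KO mouse was under every WT mouse. The log2 difference was -0.62 ± 0.18 (SE), with a 95% interval of -1.03 to -0.20 and an adjusted p of 0.646 in edgeR's quasi-likelihood test. Mcm3 (ENSMUSG00000041859, chr1:20802968-20820312) was at 8.16, 6.90 and 5.58 FPKM in WT mice and at 5.76, 3.75 and 4.03 FPKM in KO mice. The groups touched, KO mouse 1 lying above WT mouse 3, and the log2 difference was -0.61 ± 0.20, with an interval of -1.06 to -0.16. Mcm7 (ENSMUSG00000029730, chr5:138164583-138172422) was at 12.8, 9.61 and 8.501 FPKM in WT mice and at 7.78, 6.15 and 7.79 FPKM in KO mice. These groups did not overlap, with a log2 difference of -0.51 ± 0.17 and an interval of -0.89 to -0.13. It shares 421 bases with Ap4m1 and 64 with Cops6 on the other strand, whose differences were -0.09 and 0.03.

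Cdt1, which loads the helicase onto origins (ENSMUSG00000006585, chr8:122568015-122573554), was at 6.85, 5.61 and 5.30 FPKM in WT mice and at 4.33, 3.28 and 4.88 FPKM in KO mice. The groups did not overlap and the log2 difference was -0.51 ± 0.18, with an interval of -0.90 to -0.11. E2f1, the activator of many replication genes (ENSMUSG00000027490, chr2:154559407-154569892), was at 2.51, 1.79 and 1.34 FPKM in WT mice and at 1.18, 1.21 and 1.23 FPKM in KO mice. The KO mice were nearly alike and the WT mice spread over a range of which only the lowest came near them, for a log2 difference of -0.64 ± 0.26 and an interval of -1.24 to -0.05. Mcm5, next in order of p, was at 9.52, 8.86 and 6.54 FPKM in WT mice and at 7.39, 5.31 and 6.54 FPKM in KO mice. Its groups overlapped and its difference of -0.37 ± 0.17 did not pass, with an interval of -0.76 to 0.01.

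The 2 markers of proliferation in wide use did not pass the test. Mki67 (ENSMUSG00000031004, chr7:135689784-135716361) was at 9.94, 12.7 and 11.3 FPKM in WT mice and at 10.6, 6.89 and 11.6 FPKM in KO mice, so that mouse 2 alone lay below the WT range. Its log2 difference was -0.22 with a 95% interval of -0.67 to 0.23. Pcna (ENSMUSG00000027342, chr2:132249162-132253314) was at 38.8, 38.2 and 33.0 FPKM in WT mice and at 38.2, 35.1 and 30.2 FPKM in KO mice. Its groups overlapped, and its interval of -0.35 to 0.17 around -0.09 leaves out differences of the size seen for Mcm6.

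By role, the licensing and origin genes were lowest, with 9 of 9 below 0, 4 called and a median log2 difference of -0.51, from -0.66 for Cdc6 to -0.02 for the origin-firing factor Gins2. Cdc6 had the widest interval of the 43, from -1.53 to 0.22, at a mean of 87.3 reads a mouse. The 4 genes of G1/S cyclins and E2F factors were all below 0, with 1 called and a median of -0.28, Ccne1 at -0.49 and E2f2 at -0.03. Of the 5 genes of DNA synthesis and nucleotide supply 4 were below 0 and 0 called, Rrm1, the large subunit of ribonucleotide reductase, at -0.29 and Tyms, thymidylate synthase, at 0.05. The mitotic groups had medians near 0, at 0.01 for the cyclins, Cdk1 and Foxm1, at -0.06 for kinases, checkpoint and the anaphase-promoting complex, and at -0.08 for spindle and cytokinesis genes. The extremes among them were -0.29 for Plk1 and 0.28 for Kif23, neither called.

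**Figure D2:**
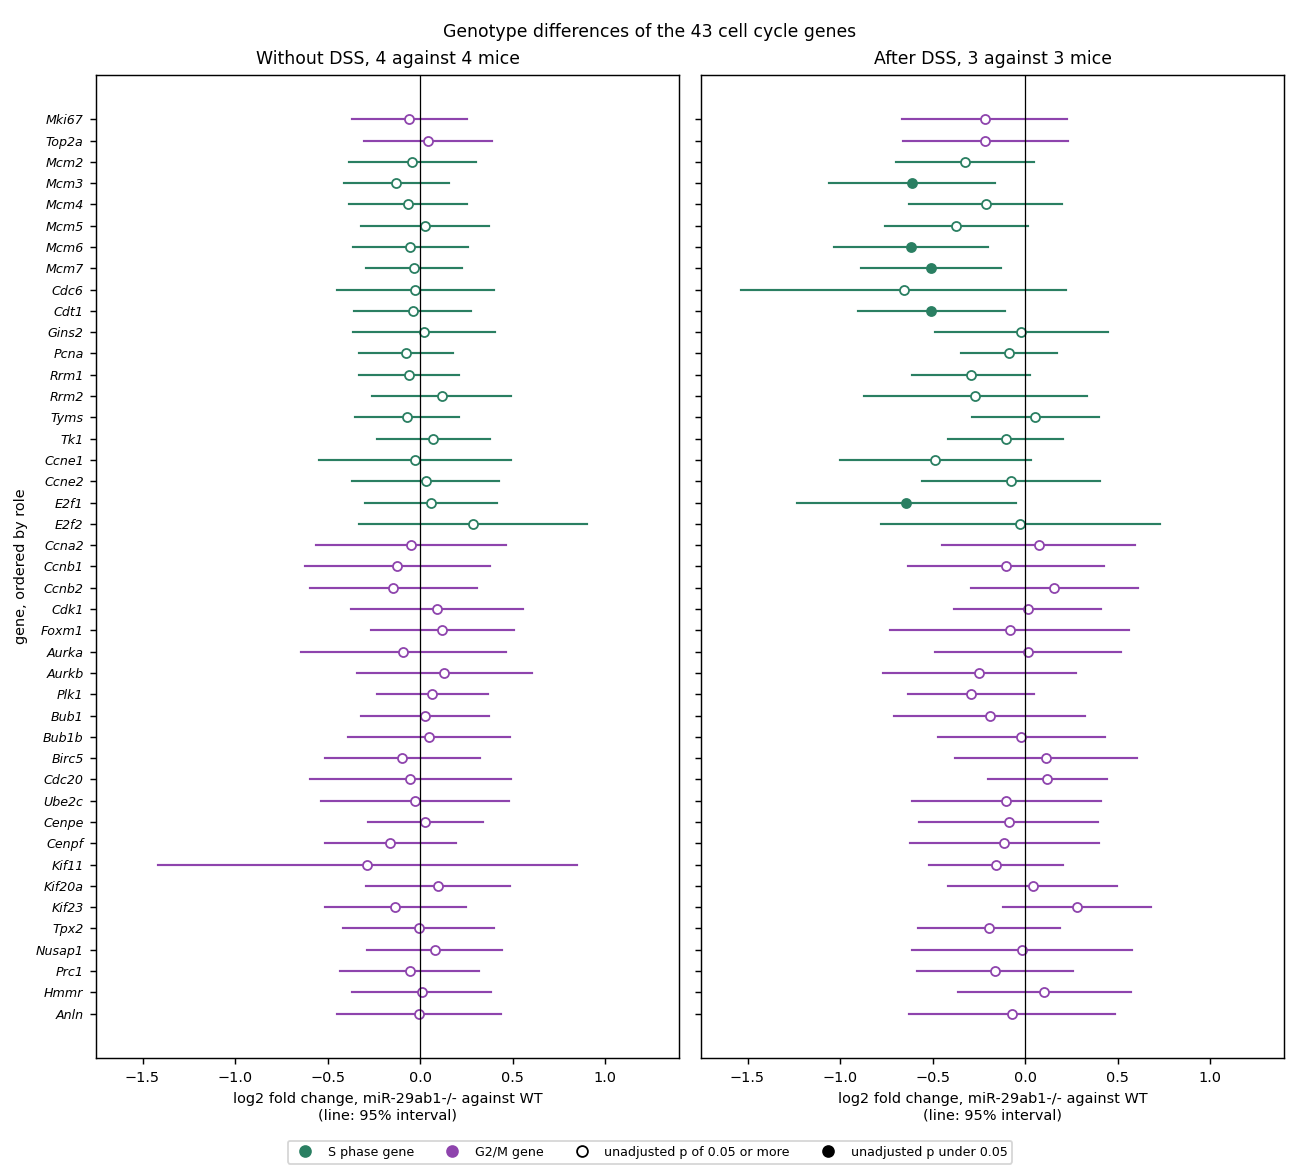
Points give the log2 fold change of KO against WT mice for each of the 43 genes, without DSS (left, 4 against 4 mice) and after DSS (right, 3 against 3 mice), with 95% intervals as lines. Filled points have an unadjusted p under 0.05, which no gene has on the left and Mcm6, Mcm3, Mcm7, Cdt1 and E2f1 have on the right.

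These calls rest on few mice. Mcm6 was called with each of the 6 mice left out in turn, at log2 differences of -0.75 to -0.44. Mcm3 was lost without WT mouse 1, Mcm7 without KO mouse 2, and Cdt1 without either of these 2 mice. E2f1 was kept without WT mouse 3 and lost without each of the other 5 mice in turn, at log2 differences of -0.68 to -0.38. Without KO mouse 2 the count fell to 2 genes, Mcm6 and Mcm3 at -0.49 each, where 1.41% of all genes tested were lower. The S phase median was then -0.21 and the G2/M median turned to 0.15. Without WT mouse 3 the count rose to 11 genes, all of S phase, where 2.58% of all genes tested were lower. Without KO mouse 1 it rose to 6, where 1.63% were lower. Without KO mouse 3 it was 5, where 8.13% of all genes tested were lower in that fit and the genes past adjustment numbered 93 over all genes, beside 2 with all 6 mice. The mitotic gene Plk1 was called lower without WT mouse 1 and without KO mouse 3, E2f2 was called lower without WT mouse 1, and Kif23 was called higher without WT mouse 2.

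The cell cycle levels of KO mouse 2 and WT mouse 1 after DSS lay apart from their groups in different ways. KO mouse 2 was the lowest of the 6 in 34 of the 43 genes, 14 of S phase and 20 of G2/M. It also had 20.2% of its reads in mitochondrial genes, where the other 13 mice had 5.71% to 14.8%, and 22.3% in its 10 most abundant genes. With mitochondrial genes left out of the counts, the number of genes called lower was the same, 5. That fit still holds the other reads of KO mouse 2, and without this mouse the number was 2. WT mouse 1 was the highest in 9 S phase genes and the lowest in 5 G2/M genes, and was the only mouse of the 14 whose S phase mean was above its G2/M mean, by 0.07 on the log2(CPM + 0.5) scale. The S phase mean was 4.62, 4.64 and 4.35 in WT mice and 4.41, 4.00 and 4.30 in KO mice after DSS. The G2/M mean was 4.55, 4.99 and 4.80 in WT mice and 4.94, 4.29 and 4.89 in KO mice. On both scores the genotypes overlapped.

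**Figure D3:**
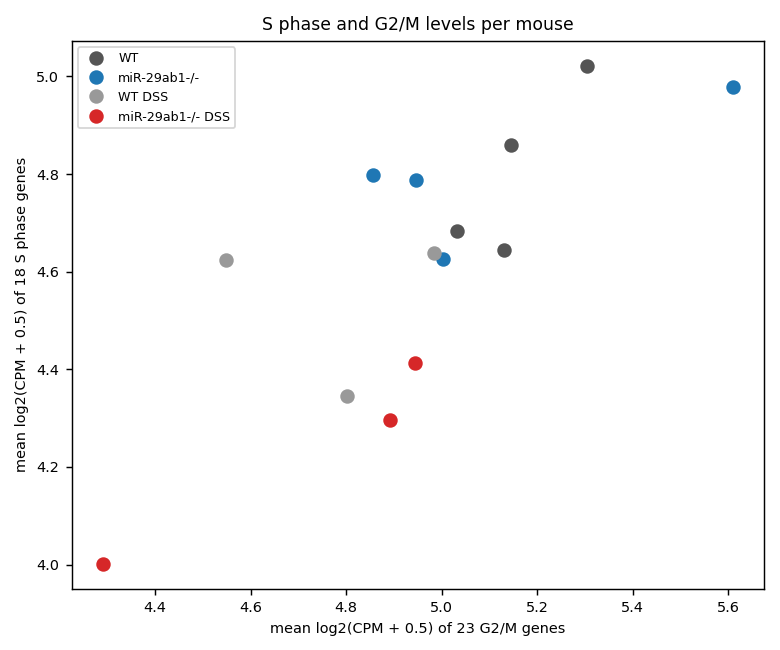
Each point is a mouse, with the mean log2(CPM + 0.5) of 23 G2/M genes (horizontal) and of 18 S phase genes (vertical), CPM scaled over all 14 mice. The 3 KO mice after DSS lie between 4.00 and 4.41 on the S phase axis, under all 8 mice without DSS, which lie between 4.63 and 5.02. The WT mice after DSS lie between 4.345 and 4.639, also under every WT mouse without DSS, the lowest of which is at 4.645. WT mouse 3 after DSS lies below KO mouse 1.

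Genes of stem and transit-amplifying cells were also on the lower side. All 7 were below 0 in KO mice after DSS with a median log2 difference of -1.09, and 3 reached the unadjusted cutoff, Rgmb, Ascl2 and Ephb2, where 3.25% of all genes were lower. Summed, they reached 205 to 231 CPM in WT and 140 to 197 CPM in KO mice, ranges that do not overlap, and none was at 0. Genes of epithelium in general summed to between 19430 and 21320 CPM in WT and between 20160 and 23990 CPM in KO mice, and those of surface colonocytes 6061 to 8339 and 7166 to 8373 CPM. Macrophage and neutrophil genes were above 0 in 6 of 6, and summed to between 5.95 and 12.9 CPM in WT and between 10.5 and 49.3 CPM in KO mice, and the 6 of T cells were all above 0 as well. At the unadjusted cutoff 1 of the macrophage and neutrophil genes and 0 of the T cell genes were higher, where 3.98% of all genes were. The T cell genes summed to between 39.6 and 76.5 CPM in WT and between 54.7 and 126 CPM in KO mice. The ranges overlapped for both lists. The part of these cell types in the cell cycle differences was not tested. Without DSS the stem cell genes summed to between 335 and 417 CPM in WT and between 330 and 413 CPM in KO mice.

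Other genes of the same pathways, which are not among the 43, were counted in the same way. Of 25 other S phase genes, 21 were below 0 after DSS with a median log2 difference of -0.25, and 3 reached the unadjusted cutoff. These were Uhrf1, a factor that keeps DNA methylation through replication, at -0.68, Pole, the catalytic subunit of DNA polymerase epsilon, at -0.68, and Lig1, DNA ligase 1, at -0.50. Of 34 other G2/M genes, 16 were below 0 with a median of 0.01 and 0 passed, the 3 with the smallest p being Hjurp at 0.34, Incenp at -0.29 and Ncapd2 at -0.29. Among 7 genes of G1 cyclins and their kinases, 6 were below 0 and 1 passed, Cdk6, a kinase partner of the D cyclins, at -0.46, while Cdk4 was at -0.32 and Cdk2 at -0.16. Of 6 CDK inhibitors tested, out of 7 listed, all were below 0 and 0 passed, among them Cdkn2b at -0.21, Cdkn1c at -0.35 and Cdkn1b at -0.06. Of 14 pocket proteins, repressive E2F factors and MuvB subunits, 7 were below 0 and 0 passed, with Lin54 at 0.22, E2f4 at -0.12 and Lin9 at 0.24.

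Without DSS the same lists held 1 gene at the unadjusted cutoff, the CDK inhibitor gene Cdkn1c, higher by 0.44. The other S phase genes had a median of 0.01, with Orc1 at -0.33, Prim1 at -0.17 and Gins1 at 0.24. The other G2/M genes had a median of -0.02, with Nek2 at -0.97, Cdc25b at 0.23 and Smc2 at -0.13. The Nek2 value rests on WT mouse 4, at 3.02 CPM where the other 7 mice had 0.558 to 0.814 CPM, and was -0.17 without it. Ccnd2, Cdc25a and Ccnd3 of the G1 list were at 0.17, 0.10 and -0.09, Cdkn2b and Cdkn1a of the inhibitors at -0.19 and 0.14, and E2f3, E2f5 and Rb1 of the pocket protein list at -0.12, -0.13 and 0.10. These are the genes with the smallest p in their lists.

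In both genotypes more of the cell cycle genes were called lower than higher in the mice given DSS, led by the mitotic kinase Plk1, and in KO mice 8 of the 9 licensing genes were among them. DSS, experiment and deposited table go together here and cannot be told apart. The share of all genes whose groups did not overlap between the experiments was not counted, so separations named below have no background. Levels for this comparison are CPM with TMM factors over all 14 mice. In WT mice 11 of the 43 genes (25.6%) were lower and 1 higher at an adjusted p under 0.05, by edgeR's quasi-likelihood test with Benjamini-Hochberg adjustment, where 18.1% of the 16370 genes tested were lower and 20.2% higher. In KO mice 23 (53.5%) were lower and 1 higher, where 22.7% of all genes were lower and 23.2% higher. The median log2 difference was -0.36 in WT and -0.58 in KO mice over the 43 genes, beside -0.02 and -0.03 over all genes tested. The 11 genes in WT mice were 5 of S phase and 6 of G2/M, and the 23 in KO mice 12 and 11. Scaled by total counts alone, the median of all genes was -0.26 in WT and -0.39 in KO mice, 24 and 29 of the 43 were called lower, and the calls over all genes went from 3313 higher and 2957 lower to 1689 and 4786 in WT and from 3798 and 3722 to 1713 and 6798 in KO mice.

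The 1 gene called higher, Kif11, is not comparable between the tables. Its gene model was 7461 bases long in the table without DSS and 4819 in that after DSS, and its counts ran from 33 to 167 and from 345 to 713. It was at 6.28, 6.79, 1.66 and 8.69 CPM without and 27.6, 33.5 and 26.6 CPM after DSS in WT mice, and at 4.21, 7.98, 2.09 and 4.80 CPM and at 28.7, 20.6 and 29.4 CPM in KO mice. The groups were far apart, and its log2 difference was 2.32 in WT and 2.46 in KO mice. Kif20a had 4338 and 3796 bases, and the other 41 genes had the same length in both. Nek2, a mitotic kinase gene of the other G2/M list, had the same length but 9 to 58 reads in one table and 343 to 686 in the other.

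Plk1 had the smallest p of the 43 in both genotypes. It was at 140, 131, 161 and 117 CPM in WT mice without DSS and at 64.0, 84.3 and 84.6 CPM in WT mice after DSS, and at 141, 178, 128 and 128 CPM and at 62.2, 54.0 and 74.5 CPM in KO mice. In both genotypes the groups were far apart, with log2 differences of -0.82 (adjusted p = 0.000879) and -1.18 (adjusted p = 3.61e-05, both edgeR's quasi-likelihood test). The overlapping Gm44985 was at -0.47 and -0.83. Mki67 was at 191, 196, 193 and 144 CPM without and 113, 144 and 128 CPM after DSS in WT mice, and at 155, 168, 214 and 160 CPM and at 121, 78.1 and 132 CPM in KO mice. It fell by 0.50 (adjusted p = 0.035) and by 0.66 (adjusted p = 0.00682) on the log2 scale in edgeR's quasi-likelihood test, and only WT mouse 4 without DSS and WT mouse 2 after it met.

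Pcna did not pass in either genotype. It was at 92.3, 107, 86.9 and 82.5 CPM without and 105, 103 and 89.0 CPM after DSS in WT mice, and at 83.0, 87.1, 104 and 75.9 CPM and at 104, 94.8 and 81.9 CPM in KO mice. The groups overlapped in both genotypes, and the log2 difference was 0.10 in each, with intervals of -0.16 to 0.36. Tyms, at 0.17 in WT and 0.30 in KO mice, and E2f2, at 0.77 and 0.46, were also above 0 without passing. Scaled by total counts alone, Pcna and Tyms turned below 0 in both genotypes, so that their direction depends on the scaling.

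The other genes of smallest p in WT mice were Mcm4, Cenpf, Mcm2 and Prc1. Mcm4, a helicase subunit, was at 37.9, 42.7, 33.3 and 29.4 CPM without and 26.4, 23.1 and 16.6 CPM after DSS, a fall by 0.70 on the log2 scale. Cenpf was at 34.7, 35.9, 43.5 and 35.6 CPM and at 19.1, 26.3 and 20.2 CPM, a fall by 0.77. In both, every mouse after DSS was below every mouse without. Mcm2 was at 47.9, 58.4, 44.4 and 41.8 CPM and at 40.1, 32.0 and 25.2 CPM, a fall by 0.57. Prc1, a cross-linker of the central spindle, was at 25.1, 26.6, 27.9 and 25.6 CPM and at 16.1, 20.2 and 16.2 CPM, a fall by 0.59, and its 21810 bases all lie within Rccd1 on the other strand, which fell by 1.06. These groups too were apart.

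In KO mice the leading S phase genes were E2f1, Mcm6, Cdt1 and Mcm7. E2f1 was at 10.5, 9.67, 10.9 and 10.1 CPM without and 4.19, 4.30 and 4.37 CPM after DSS, a fall by 1.26 on the log2 scale (adjusted p = 0.000224, edgeR's quasi-likelihood test), against 0.56 in WT mice. Mcm6 was at 59.4, 67.5, 85.0 and 89.1 CPM and at 43.6, 30.6 and 39.3 CPM, a fall by 0.99, where WT mice were at 83.8, 87.1, 72.2 and 69.8 CPM and at 71.3, 56.1 and 46.3 CPM. The KO groups were apart in both genes and the WT groups overlapped. Cdt1 was at 26.5, 22.9, 29.4 and 29.6 CPM and at 15.3, 11.6 and 17.3 CPM, a fall by 0.87. Mcm7 was at 50.3, 57.8, 68.3 and 64.3 CPM and at 38.9, 30.6 and 38.9 CPM, a fall by 0.73. In both genes every mouse after DSS was below every mouse without.

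**Figure D4:**
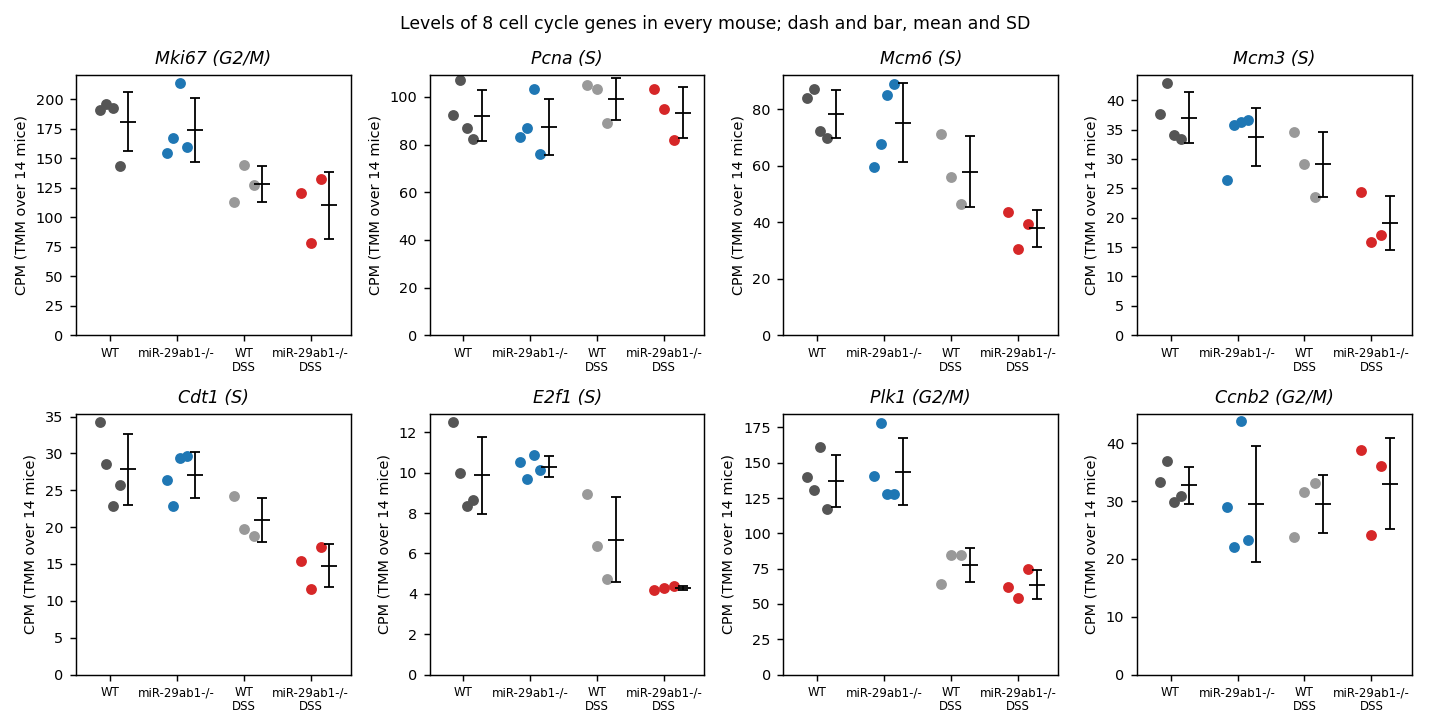
Each point is the CPM of a mouse (TMM factors over 14 mice) for 8 genes in the 4 groups, with the mean as a dash and the SD as a bar, and each axis starts at 0. In KO mice every point of Mki67, Mcm6, Mcm3, Cdt1, E2f1 and Plk1 after DSS lies below every point without, while Pcna stays between 75.9 and 107 CPM in all 14 mice. The share of all genes separated in this way was not counted.

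The number of genes called depended on single mice. In WT mice the number called lower was 4 without mouse 2 of those without DSS, 7 without their mouse 1 and 3 without mouse 3 of those after DSS. Over all genes tested the numbers called lower in these fits were, in that order, 2766 of 16330, 2648 of 16258 and 2117 of 16938. In KO mice the number was 14 without mouse 2 after DSS, where 2808 of all 16918 genes tested were called lower. Plk1, Mcm4 and Cenpf were called in WT mice with any 1 mouse left out.

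Genes of other cell types were counted in the same comparison. The 7 genes of epithelium were all higher with DSS at an adjusted p under 0.05 in both genotypes, with median log2 differences of 0.67 and 0.76, and the 6 of surface colonocytes had medians of 1.04 and 1.19. The 7 genes of stem and transit-amplifying cells had medians of -1.37 in WT and -2.75 in KO mice, with 4 and 7 called lower, and the 6 of macrophages and neutrophils medians of 1.09, with 0 called, and 1.83, with 4 called higher. The 7 of B cells, at a summed level of no more than 19.8 CPM in any group, had medians of -0.95, with 1 called lower, and -2.42, with 6. Their part in the cell cycle differences was not tested.

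The pathway lists were counted at the same adjusted cutoff. Of all 16370 genes tested, 18.1% were lower and 20.2% higher in WT mice, and 22.7% and 23.2% in KO mice. Of 25 other S phase genes 7 were lower and 0 higher in WT mice, led by Prim1 at -0.60, Pold1 at -0.67 and Pole at -0.78, and 12 were lower in KO mice, led by Pole at -1.61, Uhrf1 at -1.18 and Mcm10 at -0.87. Of 34 other G2/M genes 6 (17.65%) were lower and 3 higher in each genotype. The share lower was near that of all genes in WT mice and under it in KO mice. Of smallest p were Aspm at -1.06 and Espl1 at -0.96 in WT mice and Espl1 at -1.30 and Cdc25b at -0.94 in KO mice, beside Nek2, at 4.14 and 5.27. Among the G1 genes Cdk2 was at -0.81 and -0.97 and Cdk6 at -1.07 and -1.55, while the D cyclin genes Ccnd2, at 0.58 in WT mice, and Ccnd1, at 0.60 in KO mice, rose. In all 2 G1 genes were lower and 3 higher in WT mice, and 3 and 2 in KO mice. Of the CDK inhibitors Cdkn2b rose by 1.07 and 1.05, Cdkn1b was at -0.36 and -0.43, Cdkn1a rose by 0.72 in WT mice and Cdkn2c fell by 0.61 in KO mice. Of the 14 pocket proteins, E2F repressors and MuvB subunits 4 were lower in WT and 5 in KO mice and 1 was higher in each, E2f5, by 0.62. E2f6 at -0.73 and E2f7 at -1.26 were lower in WT mice, and E2f7 at -1.14 and E2f3 at -0.62 in KO mice.

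**Figure D5:**
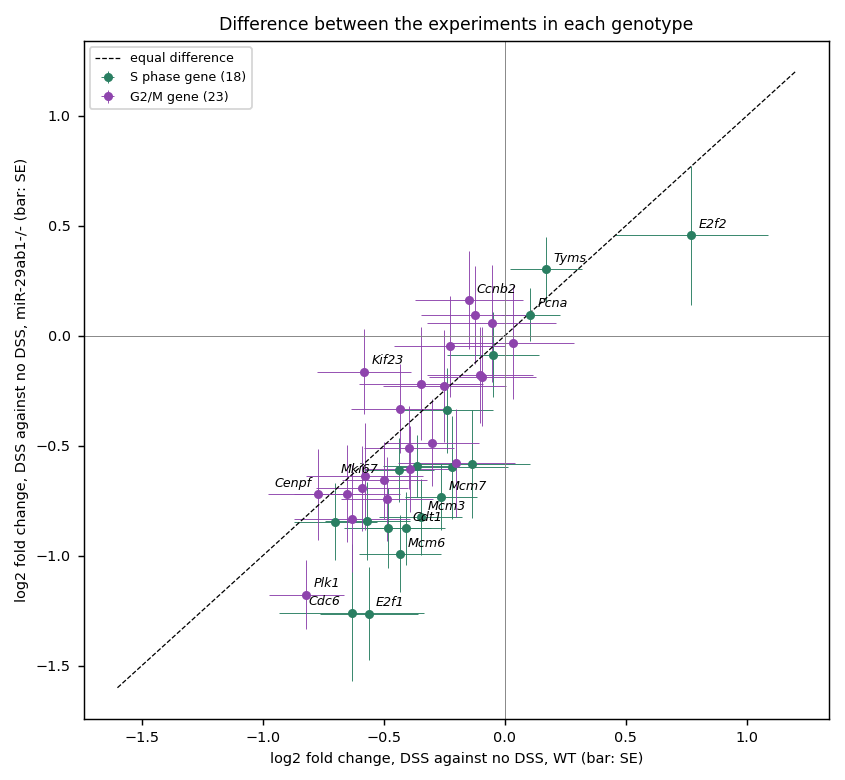
Each point is 1 of 41 genes, Kif11 and Kif20a left out, with its log2 fold change between mice given DSS and mice without it in WT (horizontal) and KO mice (vertical), bars giving the SE and the dashed line equal differences. Mcm6, Mcm3, Mcm7, Cdt1 and E2f1 lie below the line, Kif23 and Ccnb2 above it, and Pcna at 0.10 on both axes.

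Whether the genotypes differed in this change was tested as the interaction of genotype and DSS in the model over 14 mice. It rests on the same mice as the comparisons above, so it is no separate evidence. At the unadjusted cutoff 3 of the 43 genes (6.98%) were lower and 0 higher, where 2.3% of all genes tested were lower and 1.73% higher, and 0 passed adjustment, as for 0% of all genes. The 3 were E2f1, with an interaction of -0.70 ± 0.29 (SE) on the log2 scale, Mcm6 at -0.56 ± 0.24 and Mcm7 at -0.47 ± 0.21, each with an adjusted p of 0.987 in edgeR's quasi-likelihood test. The WT side of this difference is E2f1 at 12.5, 9.99, 8.34 and 8.64 CPM without and 8.93, 6.35 and 4.75 CPM after DSS, and Mcm7 at 64.7, 68.5, 59.8 and 53.8 CPM and at 64.0, 47.8 and 42.3 CPM. In both genes the WT groups overlapped, through WT mouse 1 after DSS, where the KO groups did not. Cdt1 was at 34.2, 28.5, 22.9 and 25.6 CPM and at 24.3, 19.8 and 18.7 CPM in WT mice. Mcm3 was at 37.6, 42.95, 34.1 and 33.4 CPM without and 34.5, 29.1 and 23.5 CPM after DSS in WT mice, and at 26.4, 35.8, 36.3 and 36.6 CPM and at 24.4, 15.8 and 17.1 CPM in KO mice. Its KO groups were apart and its WT groups touched. In the interaction Cdt1 at -0.46, Mcm3 at -0.48 and Plk1 at -0.36 came next and did not pass, and Mki67 at -0.16 and Pcna at -0.01 had intervals of -0.68 to 0.36 and -0.38 to 0.36. The median was -0.35 over S phase genes, of which 17 of 18 were below 0, and -0.06 over G2/M genes, of which 15 of 25 were. With 1 mouse left out at a time between 0 and 7 genes were lower. The share of all genes called in these fits was not counted, so these numbers have no background. Of the mice without DSS the count was 0 without WT mouse 3 or 4, 5 without WT mouse 2 or KO mouse 1, and 1 without KO mouse 3 or 4, and without that KO mouse 3 Cdc20, Ccnb2 and Kif23 were higher. Of the mice after DSS it was 7 without WT mouse 3, 5 without KO mouse 3, and 1 without WT mouse 1 or KO mouse 2. Plk1 was the gene called without WT mouse 1 and was among the 5 without KO mouse 3, and E2f1 was the gene called without KO mouse 2.

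Of the other S phase genes 3 were lower in the interaction, Pole at -0.83, Gins1 at -0.72 and Uhrf1 at -0.62, and of the CDK inhibitors 1, Cdkn1c at -0.78. None of the other lists held a gene at that cutoff. The 3 of smallest p were Nek2 at 1.12, Incenp at -0.38 and Cdc25b at -0.28 of the other G2/M genes, Cdk6 at -0.48, Cdk4 at -0.30 and Ccnd2 at -0.29 of the G1 genes, and Lin9 at 0.28, E2f6 at 0.22 and Tfdp2 at -0.19 of the pocket protein list. The value of Nek2 was 0.30 without WT mouse 4 of the mice without DSS, and its reads are not comparable between the tables. After Cdkn1c the CDK inhibitors were led by Cdkn1a at -0.19 and Cdkn1b at -0.07.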

How the data were processed

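RNA of 14 mice was prepared with TRIzol and a directional NEBNext Ultra library kit, per the labels. The authors deposited 1 table of raw read counts per gene for each experiment, beside gene lengths, their own FPKM and their own comparison columns. The submitters' processing notes name HISAT2 and DESeq2. The counter, annotation, use of strand and genome build were not given in the sources used here. All 43 positions listed for the mice without DSS equal those of GENCODE vM21 on GRCm38. The positions listed after DSS, where Kif11 and Kif20a have gene models of another length, were not compared. The 14 FPKM columns and the comparison columns (fold changes and p-values) were not used: FPKM was recomputed from counts, gene length and TMM-scaled library sizes within each experiment.

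Genotypes were compared within each experiment, and DSS and the interaction in a model of 4 groups over 54378 shared genes, with edgeR 4.0.16 (filterByExpr, minimum count 10 and total 15, TMM, robust quasi-likelihood test) in R 4.3.3. Benjamini-Hochberg adjustment covered all genes tested. Genotype and interaction calls use an unadjusted p under 0.05, the cutoff of the study, and DSS calls an adjusted p under 0.05. Standard errors were taken from the fold change and the F statistic, and 95% intervals from them and a t quantile. CPM between experiments uses TMM factors over all mice. Depth was 14231157 to 23153149 reads a mouse. The study used littermates but gives no litter or cage by mouse, so p-values measure the spread between these mice.

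The 43 genes, their roles and the gene lists were chosen with earlier results of these data known. Genes given in full are Mki67, Pcna and, in each comparison, the 6 of smallest p, and the 3 of smallest p in each pathway list. Other genes named (the extremes of a role, genes with seed matches, overlapping or rescaled genes) were chosen after their values were seen. Alternatives were DESeq2 1.42.0, RLE size factors, total counts without TMM, no filter on low counts, all mice in 1 model, only the mice of 1 genotype, a replicate block, each mouse left out, and, added after seeing the data, mitochondrial genes left out. The scripts were tested on simulated counts. Mice after DSS carry the numbers of the table's columns, which differ from those of the labels.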

Additional observations from a re-analysis of the deposited data

Results flagged for a closer look

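Among 86 sets of 4 mice, 43 genes in each genotype without DSS, 13 held a mouse whose gap to the nearest other exceeded Dixon's 95% critical value for 4 samples, and chance does so in about 1 in 20. No explanation was tested for any of them. In 8 genes that mouse was miR-29ab1-/- mouse 3, the highest of its genotype. It had 21.6 FPKM for Top2a, topoisomerase II, where the others had 14.8 to 15.1, and 12.6 FPKM for Rrm2, a ribonucleotide reductase subunit, where they had 8.03 to 8.64. It had 22.8 FPKM for Ccna2, where the others had 11.2 to 12.6, 11.7 FPKM for Ccnb1, where they had 5.85 to 6.08, and 6.17 FPKM for Foxm1, where they had 3.90 to 4.19. It also had 11.45 FPKM for the checkpoint kinase Bub1b, with 6.44 to 7.11 in the others, 11.5 FPKM for Birc5, with 6.35 to 7.16, and 4.94 FPKM for Cenpe, with 3.19 to 3.43. Its effect on the comparison of genotypes is given in the report.

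The other 5 sets had no mouse in common throughout. WT mouse 4 had 15.3 FPKM for Mki67, where the other WT mice had 21.1 to 21.2. WT mouse 2 was highest for Cdc6, at 2.40 FPKM against 1.44 to 1.59, and for Cdc20, at 27.9 FPKM against 23.5 to 24.2. WT mouse 3 was highest for Cenpf, at 3.11 FPKM against 2.47 to 2.51. miR-29ab1-/- mouse 1 was lowest for Mcm3, at 7.68 FPKM against 10.3 to 10.8.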

How the results depend on the processing

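Leaving out 1 mouse at a time, DESeq2, another scaling, no filter on low counts and the choice of mice in the fit reversed no called value among the 40 named results, and of their 576 alternative values 518 kept their side of the cutoff, 21 crossed to pass it and 37 crossed to miss it. Signs of uncalled values near 0 changed for Pcna and Mki67 in the interaction, Foxm1 without DSS and Pcna with DSS. After DSS the genes lower in miR-29ab1-/- mice numbered 9 with total counts alone and 10 with no filter, beside 5. The share of all genes called lower was not counted in these fits. With DSS in WT mice 18 genes were lower and 2 higher by DESeq2, 24 lower with total counts alone, 7 with no filter and 18 with the 7 WT mice alone, beside 11 lower and 1 higher. Over all 16370 genes tested 3155 were lower and 3499 higher by DESeq2, and 4786 lower with total counts alone. With no filter 2611 of 30326 were lower, and with the 7 WT mice alone 2806 of 15467. With total counts alone the S phase median was -0.59 in WT and -1.03 in miR-29ab1-/- mice and the G2/M median -0.84 in miR-29ab1-/- mice. The interaction held 5 lower genes with total counts alone and 5 with no filter, beside 3, and the share of all genes was not counted there. The cause was not tested for any of these, beyond the shift of all genes by total counts given in the report.

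With 1 mouse left out the genes higher and lower numbered 0 to 1 and 0 to 8 between genotypes without DSS, 0 to 1 and 2 to 11 after DSS, 1 to 2 and 3 to 13 with DSS in WT mice, 1 to 2 and 14 to 24 in miR-29ab1-/- mice, and 0 to 3 and 0 to 7 in the interaction. Over all genes 1.79% to 2.68% were higher and 1.09% to 2.14% lower between genotypes without DSS in these fits. After DSS 1.75% to 8.43% were higher and 1.41% to 8.13% lower. With DSS in WT mice 2652 to 3275 genes were higher and 2117 to 2822 lower, of 16258 to 16947 tested. In miR-29ab1-/- mice 3345 to 3613 were higher and 2808 to 3582 lower, of 16229 to 16930. None of the 43 passed adjustment between genotypes or in the interaction under any alternative. After DSS Cdc6, Ccne2 and E2f1 had the lowest mean counts of the 43 genes, 87.3, 108 and 108 reads a mouse.

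The replicate numbers of the labels did not pair the mice without DSS: same-numbered mice correlated at -0.03, 0.15, -0.19 and -0.13, and 1 of 4 correlated best with its own number. With a replicate block 0 genes were called, with a median of -0.02 for S phase and -0.05 for G2/M genes. After DSS no block could be fitted, because the table's numbers are not those of the labels.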
